A study of Mus musculus with 33 samples.

Results

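The Fc receptor and Src/Syk kinase genes are the 6 genes Fcgr1, Fcgr2b, Fcgr3, Fcer1g, Syk and Lyn, chosen by name among the 750 endogenous probes of a NanoString panel, and all 6 were found and passed the filter that left 655 genes for testing. They were measured in bone marrow RNA of 33 female C57BL/6 mice aged 6 to 8 weeks. NanoString nCounter counts colour-coded barcodes hybridised to each RNA, without amplification, and 1 lane was read per mouse. Mice received the BCL2 inhibitor venetoclax or the JAK1/2 inhibitor ruxolitinib by oral gavage for 2 days, venetoclax 1 time and ruxolitinib 2 times a day, or the vehicle of that drug, and marrow was taken 1, 3 or 7 days later. Each drug and day had 3 mice on drug and 2 on vehicle, and with 3 untreated mice this makes 13 groups. The doses were 100 for venetoclax and 180 for ruxolitinib, given as mg/kg in the methods and as mg/ml in the design text. Whole marrow was used, so that fewer cells of a type and less RNA per cell cannot be told apart.

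IgG bound to a target is read by myeloid and natural killer cells through Fcγ receptors. Fcgr1 encodes CD64, the high-affinity activating receptor for IgG, and Fcgr3 encodes a low-affinity activating receptor. Both need the γ chain encoded by Fcer1g, whose cytoplasmic ITAM motif is phosphorylated by Src family kinases such as Lyn and then docks the kinase Syk. Fcgr2b encodes the inhibitory receptor, which carries an ITIM motif and recruits the phosphatase SHIP1, encoded by Inpp5d. Lyn also phosphorylates ITIM motifs, so that it serves both activating and inhibitory receptors. Fcgr1 is a textbook target of interferon signalling, which runs through the kinases that ruxolitinib inhibits.

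On build GRCm38.p6, Fcgr2b (170960558 to 170976071), Fcgr3 (171051169 to 171065915) and Fcer1g (171229572 to 171234349) lie close together on chromosome 1. Fcgr1 lies on chromosome 3 (96282909 to 96293969), Syk on chromosome 13 (52582610 to 52648792) and Lyn on chromosome 4 (3678068 to 3791612). A window upstream of the annotated start was held for 5 of the 6 genes, from RefSeq on the same build, and all of these windows but those of Syk are on the minus strand. The windows were searched on both strands for the interferon-γ activated site (GAS) TTCNNNGAA, the interferon-stimulated response element, read as a pair of GAAA with any 2 bases between them, and the PU.1 box AGAGGAAG, which is CTTCCTCT on the other strand. The 250 bases before the start are given for the genes that the results turn on, read 5′ to 3′ on the gene's strand, with matches in capitals. Fcgr1 is chr3:96293970-96294219, Fcgr2b is chr1:170976072-170976321, and Fcgr3 is chr1:171059395-171059644, which is 1 of its 2 overlapping windows. Both Fcgr3 windows lie inside the span of the gene given above, before a RefSeq start that is not the outer end of that span.
Fcgr1: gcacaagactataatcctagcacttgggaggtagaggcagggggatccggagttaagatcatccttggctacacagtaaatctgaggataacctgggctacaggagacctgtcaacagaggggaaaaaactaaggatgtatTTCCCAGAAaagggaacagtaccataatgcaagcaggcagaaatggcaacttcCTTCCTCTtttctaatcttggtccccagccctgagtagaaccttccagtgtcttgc
Fcgr2b: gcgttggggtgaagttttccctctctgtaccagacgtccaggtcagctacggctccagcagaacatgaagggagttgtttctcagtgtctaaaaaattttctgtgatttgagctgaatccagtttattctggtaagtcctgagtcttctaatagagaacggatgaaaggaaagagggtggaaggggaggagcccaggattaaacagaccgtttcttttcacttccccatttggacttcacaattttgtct
Fcgr3: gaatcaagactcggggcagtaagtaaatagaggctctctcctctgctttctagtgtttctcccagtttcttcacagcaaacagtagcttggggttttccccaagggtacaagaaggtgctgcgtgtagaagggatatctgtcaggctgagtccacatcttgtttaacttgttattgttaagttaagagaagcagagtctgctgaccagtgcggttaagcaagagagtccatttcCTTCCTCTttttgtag

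The Fcgr1 window held 1 GAS, whose first base is at -109 from the start, and 1 PU.1 box at -56. The printed Fcgr3 window held 1 PU.1 box at -16 and no GAS. The other Fcgr3 window ends within this box and so held no full match to it. No window of the 5 genes held the interferon-stimulated response element in these letters, and GAS letters were found in the window of Fcgr1 alone among them. Of all 32851 windows, each searched over the 250 bases before the start, 7.02% held the GAS, 2.98% the response element and 3.67% the PU.1 box. A match describes the sequence and was not tested for binding.

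Total counts of the endogenous probes ran from 18056 to 466096 per lane, with a median of 158944, and 33.6% to 79.9% of endogenous probes were above background, taken as the mean plus 2 SD of the 8 negative control probes of the lane. Only 2 lanes held fewer than 30000 counts, venetoclax mouse 1 of day 1 and ruxolitinib mouse 1 of day 3, and no call on the 6 genes changed without them. Fcgr2b, Fcer1g, Syk and Lyn were above background in 33 of 33 lanes, Fcgr3 in 32 and Fcgr1 in 30. Raw counts of Fcgr1 were low, from 2 to 66. The defining marrow genes Mpo, Camp, Cxcl12 and Cxcr4 were above background in every lane and Kit in 26 of 33. All 11 lanes of a day, its untreated mouse included, were read in the same run, so that day and run cannot be told apart over the 3 runs. The lane names of the day 3 run read day 2, and the day given by the sample labels, 3, is used here. Values below are normalised counts, that is, the raw count divided by a lane factor taken from 11 housekeeping probes, with the SD between mice. Levels are compared within a gene and not between genes, since probes differ in efficiency. Where nothing says that mice were housed or handled apart, p-values measure only the spread between these mice.

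The strongest downward difference among the 6 genes was that of Fcgr1 1 day after ruxolitinib. The 3 ruxolitinib mice had 5.02, 5.09 and 4.92 normalised counts of Fcgr1, and the 2 vehicle mice had 11.9 and 15.1. All ruxolitinib mice therefore lay below both vehicle mice, a position shared by 16.3% of the genes tested. The means were 5.01 ± 0.084 (SD, n = 3) and 13.5 ± 2.23 (SD, n = 2), a log2 fold change of -1.46 (SE 0.46). Fcgr1 ranked 23 of 655 genes by p-value and missed the threshold of 0.05 (edgeR quasi-likelihood test, adjusted p = 0.0825), in a comparison where 2.75% of all genes passed. It passed under 4 of 11 alternative settings, with adjusted p from 0.00619 upwards, and in none of the fits that left out 1 mouse. The raw counts behind these values were 8, 9 and 9 against a lane background of 4.58, 7.59 and 6.35, and 13 and 44 against 3.82 and 7.28 in the vehicle mice, so that the ruxolitinib lanes were just above background.

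At the later days Fcgr1 was not below vehicle in this way. On day 3 ruxolitinib mice had 27.5, 15.8 and 7.44 normalised counts of Fcgr1 and vehicle mice 18.4 and 12.2, where the 27.5 rests on 5 raw counts in a shallow lane, under its background of 7.21. On day 7 they had 11.5, 19.4 and 37.3, and vehicle mice 19.5 and 12.3. The groups overlapped on both days. The ruxolitinib effect on day 7 minus that on day 1 was 1.48 on the log2 scale (SE 0.61, adjusted p = 0.344 by edgeR), and 1.53% of all genes passed this test. Venetoclax mice on day 1 had 16.6, 14.3 and 17.0 normalised counts, inside the range of their vehicle mice, 11.9 and 19.1. The first of them rests on 3 raw counts, under the background of its lane. Venetoclax minus ruxolitinib on day 1 came to 1.40 for Fcgr1 (SE 0.67, adjusted p = 0.338 by edgeR). It passed in 1 of 11 alternatives, that with both vehicles pooled (adjusted p = 0.0322).

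Within-lane ratios do not depend on the scaling of the lane and gave the same order for Fcgr1. The log2 ratio of the raw counts of Fcgr1 over Fcgr2b was -4.70 to -4.34 in the 3 ruxolitinib mice of day 1. It was -2.94 and -2.37 in their vehicle mice, and the lowest value in any other group was -3.87. The ratio sets the activating high-affinity receptor beside the inhibitory one, and Fcgr2b was above vehicle in the same 3 mice, so that both genes bear on it.

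The genes whose values were most like those of Fcgr1 over the 33 mice, after the mean of the run was subtracted, were Oas2 (Spearman 0.73), Zbp1 (0.71) and Ifih1 (0.54), against a median of -0.005 over the 349 candidate genes. Oas2 encodes an antiviral oligoadenylate synthetase, Zbp1 a nucleic acid sensor and Ifih1 the RNA sensor MDA5, and all are known as interferon-induced genes. The points share lanes and scaling, so these values are descriptions. The 3 genes were chosen by likeness to Fcgr1 over mice that include the ruxolitinib mice of day 1. Their direction in that group is therefore partly set by the choice. On day 1 after ruxolitinib Oas2 fell by 2.10 on the log2 scale (SE 0.31, adjusted p = 3.24e-05), Zbp1 fell by 1.69 (SE 0.35, adjusted p = 0.00214) and Ifih1 fell by 1.26 (SE 0.29, adjusted p = 0.00704), all by edgeR. Venetoclax gave -0.06 for Oas2, -0.17 for Zbp1 and -0.78 for Ifih1 on that day, none of which passed. The same 3 genes stood first in the same order by Pearson correlation and without the 2 shallow lanes.

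**Figure D1:**
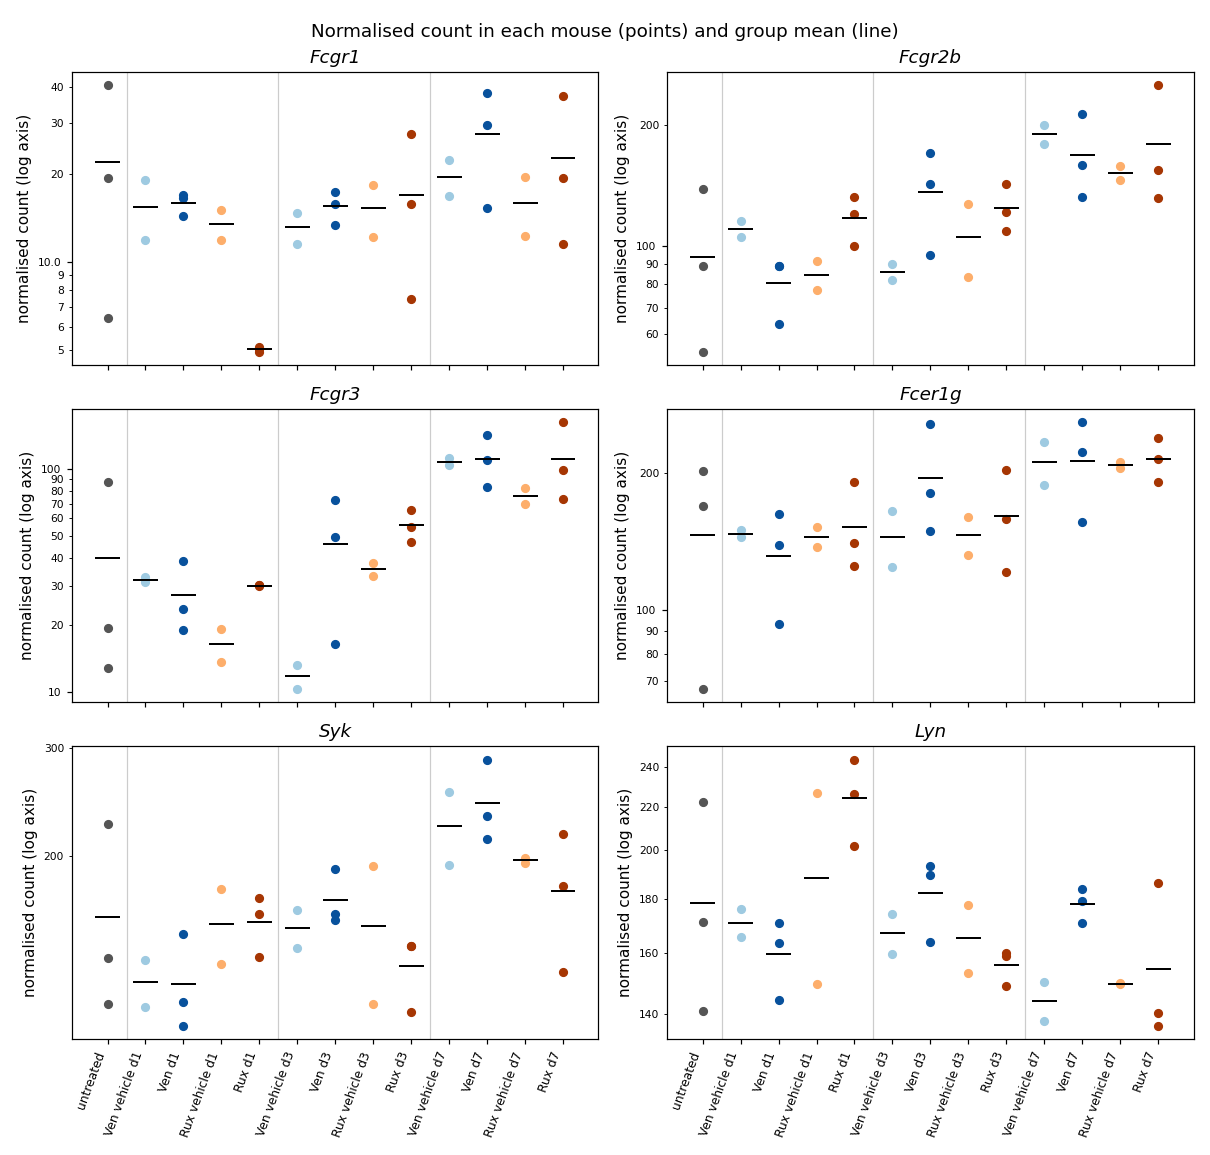
Normalised count (log axis) of the 6 genes in each of the 33 mice, with points for mice, a line for the group mean and vertical lines between untreated mice and days 1, 3 and 7. The 3 ruxolitinib mice of day 1 have the 3 lowest Fcgr1 values, 4.92 to 5.09, and Fcgr3 is at 69.7 or above in all mice of the day 7 run that received a drug or vehicle.

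Fcgr3, the low-affinity activating receptor, varied most among the 6 genes, with a 9.42-fold range between group means, against 5.51-fold for Fcgr1, 2.36-fold for Fcgr2b, 1.97-fold for Syk, 1.64-fold for Fcer1g and 1.56-fold for Lyn. In the order of the 13 group means, 6 of 12 neighbouring pairs of Fcgr3 differed by more than the larger of their SDs. For Fcgr1 and Syk 1 pair of 12 did so, and for Fcgr2b, Fcer1g and Lyn none, so that the order of most neighbours is not settled by these data. The highest Fcgr3 means were 111 ± 29.3 and 111 ± 45.5 (SD, n = 3 each) in venetoclax and ruxolitinib mice of day 7, and the lowest was 11.8 ± 2.04 (SD, n = 2) in venetoclax vehicle mice of day 3.

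On day 3 after venetoclax the mice had 49.6, 16.5 and 72.7 normalised counts of Fcgr3 and their vehicle mice 10.4 and 13.3. All 3 were above both vehicle mice, but 1 of them by little, and 13% of all genes held that position on this day. The log2 fold change was 1.95 (SE 0.49), second of 655 genes by p-value, with an adjusted p of 0.0819 by edgeR. None of the 655 genes passed in this comparison (0%), while 70 had an unadjusted p under 0.05. DESeq2 called 1 of the 6 genes here, Fcgr3 with an adjusted p of 0.0242, and limma none. Without venetoclax mouse 2, which had the 16.5, the log2 fold change was 2.32 with an adjusted p of 0.00814. Leaving out any other of the 5 mice gave 1.46 to 2.18 with adjusted p from 0.136 to 0.951. The ruxolitinib vehicle mice of the same run had 33.1 and 38.1, above the venetoclax vehicle mice, and with both vehicles pooled the change was 1.18.

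On day 1 the venetoclax mice had 38.8 (7 raw counts in a shallow lane, background 4.39), 23.7 and 19.1 normalised counts of Fcgr3, on both sides of their vehicle mice at 31.3 and 32.7. On day 7 they had 109, 83.0 and 141 and vehicle mice 112 and 104, so that these groups overlapped as well. The change over the 3 days was 0.55 (SE 0.27, adjusted p = 0.549 by edgeR).

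After ruxolitinib, Fcgr3 had positive log2 fold changes on each of the 3 days, none of which passed. On day 1 the mice had 30.1, 30.0 and 30.1 and vehicle mice 19.2 and 13.7, a log2 fold change of 0.92 (SE 0.46, adjusted p = 0.367 by edgeR). All 3 were above both vehicle mice, as were 27.6% of all genes. On day 3 the mice had 55.0, 65.7 and 47.1 and vehicle mice 33.1 and 38.1. The 55.0 rests on 10 raw counts in a shallow lane with a background of 7.21. All 3 mice were above both vehicle mice, as were 7.63% of genes, and the log2 fold change was 0.68 (SE 0.45, adjusted p = 0.998 by edgeR). With both vehicles of the day pooled the value was 0.42 on day 1 (adjusted p = 0.652) and 1.45 on day 3 (adjusted p = 0.0443), and with only the groups compared day 1 passed at 0.95 (adjusted p = 0.0151). On day 7 the groups overlapped, with 73.0, 99.0 and 162 against 81.8 and 69.7, a log2 fold change of 0.43 (SE 0.40). The mean over days was 0.68 (SE 0.25, adjusted p = 0.269 by edgeR), in a test passed by 1.22% of all genes, and with only the groups compared it passed at 0.67 (adjusted p = 0.034). A two-sided exact permutation of the labels within days gave 0.65 with p = 0.002 over 1000 arrangements, 1 of 12 such tests run for the 6 genes and both drugs. In that test the p of Fcgr3 after venetoclax was 0.275.

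Fcgr2b, the inhibitory receptor, lay on opposite sides of vehicle after the drugs on day 1. Venetoclax mice had 88.7, 89.1 and 63.6 normalised counts of Fcgr2b and vehicle mice 115 and 105, so that all 3 were below, as were 15.7% of genes. The log2 fold change was -0.45 (SE 0.31, adjusted p = 0.684 by edgeR). Ruxolitinib mice had 120, 132 and 99.6 and vehicle mice 91.6 and 77.7, with all 3 above, as were 27.6% of genes, and the log2 fold change was 0.48 (SE 0.28, adjusted p = 0.479 by edgeR). The difference between the drugs was -0.93 (SE 0.42, adjusted p = 0.304 by edgeR), and 1.68% of all genes passed there. It became -0.54 with both vehicles pooled (adjusted p = 0.267) and passed at -0.92 with only the groups compared (adjusted p = 0.0346). For Fcgr3 the same difference was -1.31 (SE 0.69, adjusted p = 0.399), which became -0.30 with both vehicles pooled (adjusted p = 0.749) and passed at -1.36 with only the groups compared (adjusted p = 0.0254).

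On day 3 the venetoclax mice were above vehicle for Fcgr2b, at 143, 94.7 and 170 against 81.9 and 89.9, a position held by 13% of genes. The log2 fold change was 0.66 (SE 0.29, adjusted p = 0.41 by edgeR). The venetoclax mouse with the lowest Fcgr2b, 94.7, was also the one with the lowest Fcgr3, 16.5. On day 7 Fcgr2b was 132, 159 and 213 after venetoclax and 200 and 180 after vehicle, and the groups overlapped. The mean ruxolitinib change over days was 0.30 (SE 0.17, adjusted p = 0.551 by edgeR).

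**Figure D2:**
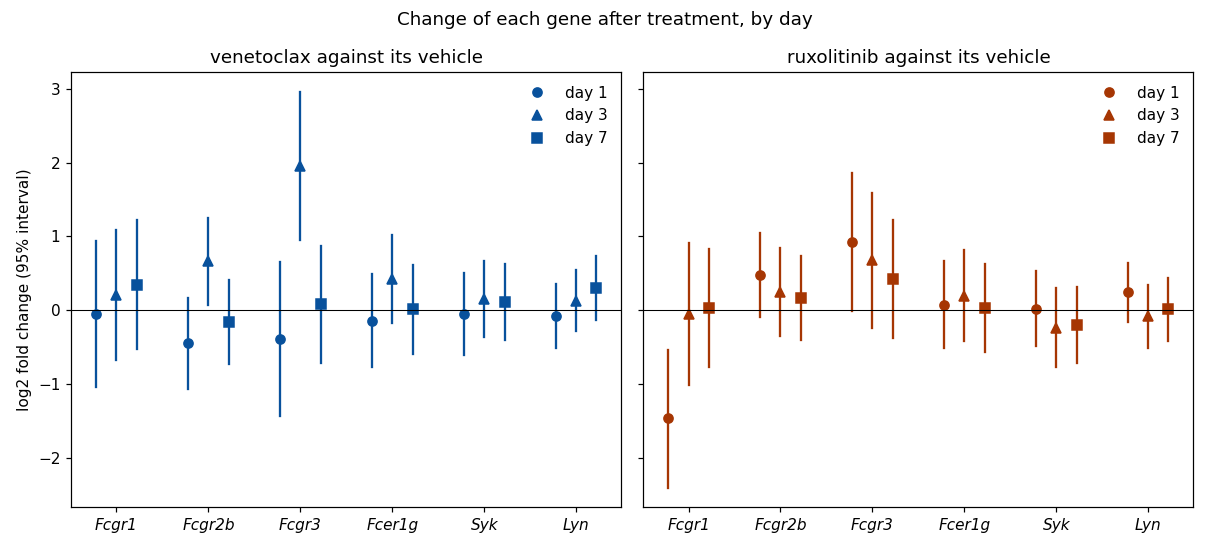
Log2 fold change of each gene against the vehicle of the drug by day, with the 95% interval of the edgeR fit, for venetoclax (left) and ruxolitinib (right). The intervals of Fcgr1 after ruxolitinib on day 1 and of Fcgr3 and Fcgr2b after venetoclax on day 3 lie to 1 side of 0, and none passed after adjustment over 655 genes.

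Fcer1g, the γ chain shared by the activating receptors, and the kinases Syk and Lyn stayed close to vehicle after both drugs. The log2 fold changes over the 6 drug and day comparisons ran from -0.14 to 0.43 for Fcer1g, from -0.24 to 0.16 for Syk and from -0.08 to 0.30 for Lyn, with the lowest adjusted p at 0.652, 0.882 and 0.638. The 0.43 of Fcer1g was on day 3 after venetoclax (SE 0.29), with 181, 149 and 256 normalised counts against 125 and 165. It became 0.18 to 0.65 when 1 mouse was left out. The 0.30 of Lyn was on day 7 after venetoclax (SE 0.21), with 179, 171 and 184 against 150 and 138. All 3 venetoclax mice were above vehicle for Lyn there, as were 6.56% of genes. Lyn also had its highest group mean, 224 ± 21 (SD, n = 3), in ruxolitinib mice of day 1, whose vehicle mice were apart from each other at 149 and 227.

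In the 6 drug and day comparisons together, none of the 36 values of the 6 genes passed 0.05 by edgeR after adjustment, and 3 had an unadjusted p under 0.05. Of all 655 genes, 68, 70 and 31 had such a p on days 1, 3 and 7 after venetoclax. After ruxolitinib 89, 31 and 23 of the 655 had one on these days. DESeq2 called 1 of the 36 and limma 0. Among all genes, 0.153% passed on day 1 after venetoclax and on days 3 and 7 after ruxolitinib, as well as on day 7 after venetoclax. Over the 3 days 2.9% of all genes passed for venetoclax, and none of the 6 did. The drugs differed on day 3 in 0.153% and on day 7 in 0.305% of all genes, none of the 6 among them, and Fcgr3 had the largest value of the 6 on day 3, 1.27 (SE 0.67, adjusted p = 0.999). With both vehicles pooled that value turned to -0.27. The venetoclax effect did not differ between days 1 and 7 in any of the 655 genes at the threshold (0%, with 37 at an unadjusted p under 0.05 by edgeR, and 0 by DESeq2 and limma).

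Some of the 6 genes also differed between days. A test of any difference among the 13 groups, which includes differences between days, passed for 4 of the 6 genes, with adjusted p of 5.07e-06 for Fcgr3, 0.00263 for Fcgr2b, 0.0172 for Syk and 0.0302 for Fcgr1 by edgeR, and 36.3% of all genes passed. Fcer1g (adjusted p = 0.23) and Lyn (adjusted p = 0.272) did not pass. DESeq2 called 5 of the 6 genes in this test and limma 2.

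The vehicle mice differed between days without drug, in a contrast that was added after the values were seen. Fcgr3 rose by 2.02 on the log2 scale from vehicle mice of day 1 to those of day 7 (SE 0.33, adjusted p = 0.00014 by edgeR), second of 655 genes by p-value. The 4 vehicle mice of day 1 had 13.7 to 32.7 normalised counts of Fcgr3 and those of day 7 had 69.7 to 112. Fcgr2b rose by 0.83 (SE 0.22, adjusted p = 0.00474), from 77.7 to 115 on day 1 to 145 to 200 on day 7. Syk rose by 0.61 (SE 0.20, adjusted p = 0.0174), from 114 to 177 to 194 to 255. Fcer1g gave 0.54 (SE 0.23, adjusted p = 0.0727) and Fcgr1 0.27 (SE 0.32, adjusted p = 0.57).
Lyn was the single gene of the 6 with a negative value, -0.29 (SE 0.16, adjusted p = 0.176). Of all genes 30.1% passed, 131 higher and 66 lower on day 7. From day 1 to day 3 no gene passed (0%, 13 with an unadjusted p under 0.05 by edgeR, 0 by DESeq2 and by limma), and the 6 genes lay between -0.11 and 0.15.

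The scaling of the lanes bears on this contrast. The median of all genes was 0.19 with the housekeeping probes used here, -0.01 with TMM and 0.44 with the total count. Relative to that median Fcgr3 was at 1.81 to 1.83 and Lyn at -0.51 to -0.48 under these 3 scalings. Syk missed the threshold with TMM (adjusted p = 0.106), with all housekeeping probes (0.0775) and with DESeq2 (0.0784), where Lyn passed at -0.51 (0.0217), -0.49 (0.0217) and -0.50 (0.0135). Fcer1g passed in 2 of 10 alternatives, with the total count at 0.77 (adjusted p = 0.0206) and with only the groups compared at 0.56 (adjusted p = 0.000435). Syk also missed it in 4 of the fits without 1 mouse, those without mouse 2 of either vehicle on day 1 or mouse 1 of either vehicle on day 7, with adjusted p up to 0.131.

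Markers of other cells differed between the same vehicle mice. Of the 9 neutrophil markers 6 rose from day 1 to day 7, among them Elane, Mpo and Lcn2, and 2 fell, S100a8 and Csf3r, with a median log2 change of 1.28 against 0.19 for all genes. The summed level of the 9, which S100a8 dominates, was 82959 to 104093 on day 1 and 57636 to 69074 on day 7. Of the 11 monocyte and macrophage markers 5 rose and none fell, with summed levels of 525 to 642 on day 1 and 680 to 851 on day 7. Every neutrophil marker was above background in 33 of 33 lanes. The part of these cells in the change of Fcgr3, Fcgr2b and Syk was not tested.

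Fcgr3 was also highest in the untreated mouse of the day 7 run. The untreated mouse read with day 1 had 12.8 normalised counts of Fcgr3, the one with day 3 had 19.4 and the one with day 7 had 87.6, and Fcgr1 was 6.40, 19.4 and 40.5 in the same mice. In the untreated mouse of day 1 neither gene was above background, with 4 raw counts of Fcgr3 and 2 of Fcgr1 against 7.47. Untreated mice had no treatment day, so that these differences lie between mice and runs. The mean of the 6 vehicle groups minus untreated was -0.43 for Fcgr1 (SE 0.35, adjusted p = 0.75) and 0.33 for Fcgr2b (SE 0.23, adjusted p = 0.628), and the other 4 genes lay between -0.11 and 0.15. Leaving out 1 mouse moved the Fcgr1 value to between -0.68 and -0.06, and the Fcgr2b value to between 0.11 and 0.60. No gene of the 655 passed this test by edgeR (0%, with 75 at an unadjusted p under 0.05), and none by DESeq2 or limma. Within the runs, as a description added after the values were seen, the mean log2 value of 4 vehicle mice minus the untreated mouse was taken. It was 1.04, -0.45 and -1.17 for Fcgr1 on days 1, 3 and 7, where on day 1 the untreated mouse was not above background for this gene. For Fcgr2b it was 0.81, 0.08 and 0.29 on days 1, 3 and 7 and for Fcer1g 1.11, -0.23 and 0.05. For Syk it was 0.26, 0.14 and -0.11 and for Lyn 0.33, -0.05 and -0.60. The sign thus turned between runs for Fcer1g, Syk and Lyn, and also for Fcgr1, there with a day 1 value that rests on a count under background.

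**Figure D3:**
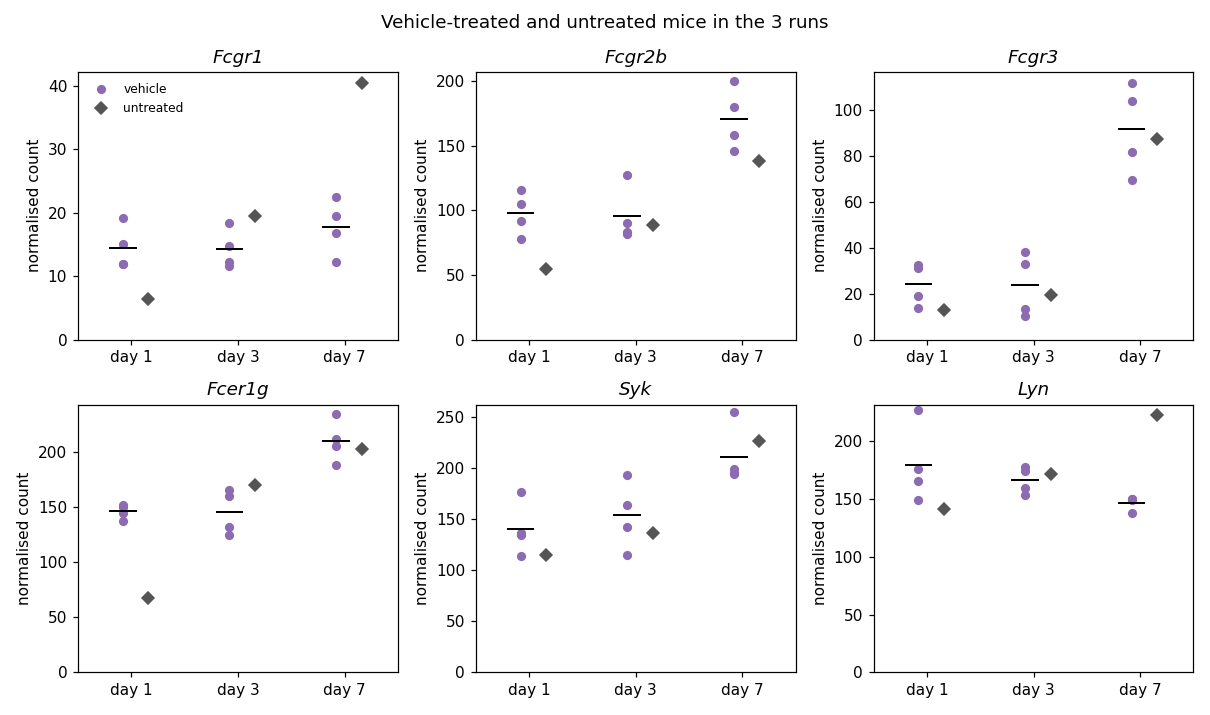
Normalised counts of the 6 genes in the 4 vehicle mice of each run (circles, with a line for their mean) and in the untreated mouse of that run (diamond), by the day of the run. Fcgr3 is at 69.7 or above in the vehicle and untreated mice of the day 7 run and at 38.1 or below in those of the other runs.

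Ratios of a pair of these genes within a lane do not depend on the scaling of the lanes. The log2 ratio of Fcgr3 over Fcgr2b, activating over inhibitory, was -2.51 to -1.69 in vehicle mice of day 1 and -1.06 to -0.79 in those of day 7, without overlap. In the untreated mice it was -2.09, -2.19 and -0.66 in the runs of days 1, 3 and 7, the first of them with Fcgr3 not above background. Vehicle mice of day 3 were apart by drug, with -2.98 and -2.76 for venetoclax vehicle and -1.74 and -1.33 for ruxolitinib vehicle, and venetoclax mice of that day had -2.52 to -1.22. On days 1 and 7 venetoclax mice overlapped with their vehicle. Ruxolitinib mice lay above their own vehicle on each day. They had -2.14 to -1.73 against -2.51 and -2.25 on day 1, and -1.21 to -1.12 on day 3. On day 7 they had -0.85 to -0.64 against -1.06 and -0.95. With the vehicle mice of both drugs together, days 1 and 7 overlapped. Fcer1g over Fcgr2b was between -0.07 and 0.93 over all 33 mice. On day 1 it was 0.55 to 0.87 after venetoclax, above the 0.33 and 0.51 of its vehicle, and 0.06 to 0.53 after ruxolitinib, below the 0.73 and 0.82 of its vehicle. The vehicle mice of both drugs on day 1 together overlapped with either drug, and on days 3 and 7 each drug overlapped with its own vehicle. The differences of these ratios between drug and vehicle were not tested, and how many other pairs of genes are placed like this was not counted. Among single genes, 27.6%, 7.63% and 8.09% lay above vehicle after ruxolitinib on days 1, 3 and 7. On day 1, 11.8% lay above it after venetoclax and 16.3% below it after ruxolitinib. Syk over Lyn was -0.76 to 0.24 in vehicle mice of day 1 and 0.38 to 0.76 in those of day 7, the kinases thus moving apart between these runs.

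**Figure D4:**
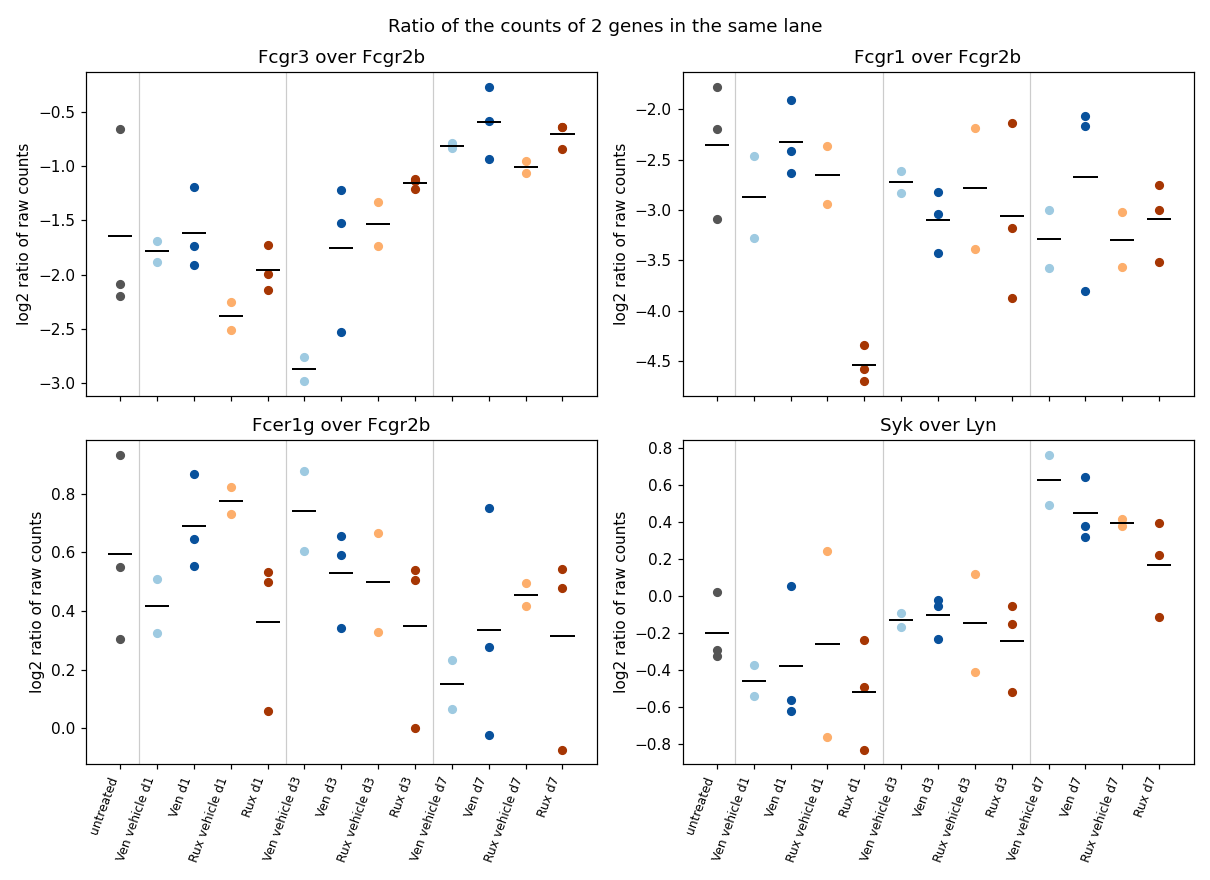
Log2 ratio of the raw counts of 2 genes in the same lane, for 4 pairs, with points for mice and a line for the group mean, by group and day. Fcgr1 over Fcgr2b is lowest in ruxolitinib mice of day 1, at -4.70 to -4.34, and Fcgr3 over Fcgr2b is higher in the groups of day 7 than in those of day 1.

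Once the mean of the run was subtracted, Fcgr2b and Fcgr3 still went together over the 33 mice (Spearman 0.80), as did Fcgr2b and Fcer1g (0.66), Fcgr3 and Fcer1g (0.51) and Syk and Lyn (0.50). Fcgr1 stood apart, between -0.10 and 0.11 with the other 5 genes. The genes most like Fcgr3 were Elane (0.85), Lbp (0.83) and Clec4a2 (0.82), and those most like Fcgr2b were Lcn2 (0.86), C5ar1 (0.86) and Itgal (0.86). Elane encodes neutrophil elastase, a granule protease of early neutrophil stages, Lcn2 the granule protein lipocalin 2, and C5ar1 the receptor for complement C5a on myeloid cells. Fcer1g was most like C5ar1 (0.78), Lcp1 (0.77) and Lcn2 (0.76). Syk was most like Dusp6 (0.69), a phosphatase of ERK, then Cxcr4 (0.65) and Cyfip2 (0.64), and Lyn like Dusp6 (0.72), Ccr1 (0.67) and Ctss (0.62). The order moved with the measure, first places included except for Fcgr1 and Syk, and Ctss fell to place 25 without the shallow lanes. These are descriptions over mice that share lanes, runs and scaling.

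On the days when Fcgr3 and Fcgr2b lay above both vehicle mice, most neutrophil markers were positive. Most were also positive on days 3 and 7 after ruxolitinib, when Fcgr2b or both genes overlapped with vehicle. Among these markers, Elane and Lcn2 were named above for their likeness to Fcgr3 and Fcgr2b over the same mice. Their own direction here is therefore partly set by that choice. On day 3 after venetoclax Elane was at 1.47 (SE 0.60) and Lcn2 at 1.12 (SE 0.50) on the log2 scale, both with an adjusted p of 0.41, and 7 of 9 neutrophil markers were positive with a median of 0.84 against 0.06 for all genes. Their summed level overlapped, 91230 to 121539 after venetoclax and 98342 and 111428 after vehicle. On day 1 after ruxolitinib 7 of 9 were positive with a median of 0.58 against 0.13 for all genes, and Elane was at 0.98 (SE 0.58, adjusted p = 0.483). The summed level there was 79678 to 93456, under the 97280 and 104093 of vehicle mice. On day 1 after venetoclax, when Fcgr2b was below vehicle, 5 of 9 were positive with a median of 0.14, and on day 7 3 of 9 with a median of -0.06. After ruxolitinib 8 of 9 were positive on day 3 and 9 of 9 on day 7, with medians of 0.20 and 0.27. Of the 11 monocyte and macrophage markers 9 were positive on day 3 after venetoclax, with a median of 0.19, and 7 on day 1 after ruxolitinib, with a median of 0.46. Their summed level overlapped in both, 501 to 688 against 570 and 587 and 546 to 668 against 571 and 642. No marker of either list passed in these comparisons, and the part of neutrophils, monocytes and macrophages in the values of Fcgr3 and Fcgr2b was not tested.

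**Figure D5:**
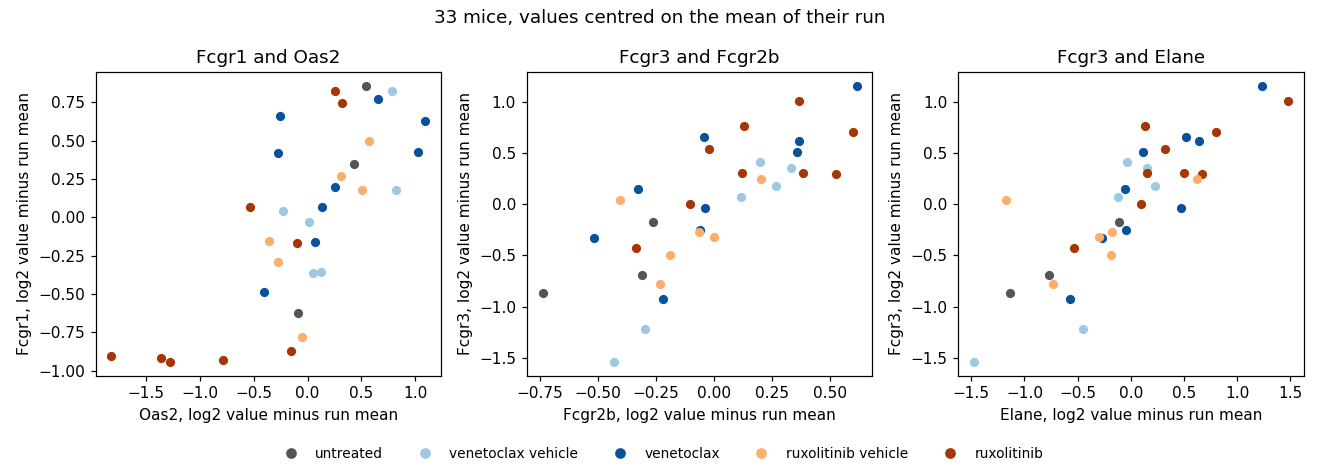
Values of 33 mice on the log2 scale after the mean of their run was subtracted, for Fcgr1 against Oas2, Fcgr3 against Fcgr2b and Fcgr3 against Elane, coloured by treatment. The ruxolitinib mice of day 1 lie at the low end of both Fcgr1 and Oas2, and Fcgr3 runs along with Fcgr2b (Spearman 0.80) and Elane (0.85).

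The other genes of the pathway were taken from 5 lists, and none of their genes passed in a ruxolitinib comparison. None of the 4 other Fc receptor genes tested (Fcgr4, Fcer1a, Fcer2a and Ms4a2) passed after either drug on any day or over days. In the vehicle mice 3 of the 4 rose from day 1 to day 7, with a median of 0.82 for the list against 0.19 for all genes. They were Fcgr4, another activating receptor, at 1.12 (SE 0.26, adjusted p = 0.00182 by edgeR), and Fcer1a and Ms4a2, chains of the IgE receptor of mast cells and basophils. Fcer1a was at 0.86 (SE 0.26, adjusted p = 0.012) and Ms4a2 at 0.78 (SE 0.26, adjusted p = 0.0189), also by edgeR. Fcgr4 passed in each of 10 alternatives and in each fit without 1 vehicle mouse of these days. Fcer1a passed in 8 alternatives and missed the threshold without mouse 2 of either vehicle on day 1 or mouse 1 of either on day 7 (adjusted p up to 0.107). Ms4a2 passed in 6 and missed it without mouse 2 of either vehicle on day 1, mouse 2 of the venetoclax vehicle on day 7 or mouse 1 of the ruxolitinib vehicle on day 7, the last of which lowered it to 0.49 (adjusted p = 0.382). Of 5 mast cell and basophil markers, which include both of these, 2 rose in that contrast and none fell.

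Of the 8 other Src, Syk and Tec family kinases, Zap70, the T and natural killer cell counterpart of Syk, fell by 0.97 over the 3 days after venetoclax (SE 0.24, adjusted p = 0.0162), and none rose. In this list 7 of 8 values were negative, with a median of -0.47 against 0.04 for all genes. Of the 10 other ITAM-bearing chains and adaptors, Cd3d, a chain of the T cell receptor complex, fell by 0.94 (SE 0.23, adjusted p = 0.0153), and none rose. Zap70 passed in 9 of 11 alternatives and Cd3d in 10. Without vehicle mouse 2 of day 1 or vehicle mouse 1 of day 3 neither passed, and Cd3d also missed without venetoclax mouse 2 of day 1 or mouse 3 of day 7 (adjusted p up to 0.104 for Cd3d and 0.072 for Zap70).

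Of the 10 T cell markers 2 fell in the same comparison, Cd3d and Cd8a, and 9 of 10 were negative, with a median of -0.63. The summed T cell marker level was 67.0 to 77.2 on day 3 after venetoclax against 108 and 135 after vehicle, and on day 1 it overlapped, 53.6 to 122 against 89.2 and 105. On day 7, 9 of 10 T cell markers were negative, with a median of -0.80. Of 10 natural killer cell markers 7 were negative over the 3 days, with a median of -0.17, and none passed. Cd5 was above background in 9 of 33 lanes and Cd8a in 16. The part of T cells and natural killer cells in the values of Zap70 and Cd3d was not tested.

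Of the 8 inhibitory receptors and phosphatases, Cd22, an ITIM-bearing lectin of B cells and a substrate of Lyn, fell by 0.80 over the 3 days after venetoclax (SE 0.23, adjusted p = 0.0476), a call kept in 4 of 11 alternatives. Inpp5d, which encodes the phosphatase recruited by Fcgr2b, did not pass after either drug. Of the 11 B cell markers 10 were negative in this comparison, with a median of -0.27, and Cd22 was the single one that passed. The part of B cells in the value of Cd22 was not tested.

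Genes of the kinase, ITAM and inhibitory lists and of a list of 14 genes downstream of Syk were also called between vehicle mice of day 1 and day 7, where 30.1% of all genes passed. The share was 1 of 8 for the kinases (median -0.16), 3 of 10 for the ITAM list (median 0.16), 4 of 8 for the inhibitory list (median 0.35) and 7 of 14 for the genes downstream of Syk (median -0.08), against a median of 0.19 for all genes. Clec7a, the β-glucan receptor Dectin-1, which signals through Syk, rose by 1.23 (SE 0.28, adjusted p = 0.00182), Cd79b, a chain of the B cell receptor, by 1.20 (SE 0.30, adjusted p = 0.00293), and the transcription factor gene Nfatc3 by 1.82 (SE 0.31, adjusted p = 0.00014). These 3 passed in each of 10 alternatives and without any 1 mouse. Cd22 fell by 1.32 (SE 0.30, adjusted p = 0.0015) and Cd3g rose by 1.45 (SE 0.40, adjusted p = 0.00585). Both passed in each of 10 alternatives, but Cd22 not without mouse 1 of the venetoclax vehicle on day 7 (adjusted p = 0.0526) and Cd3g not without mouse 2 of the ruxolitinib vehicle on day 1 (0.056).

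Another 8 genes passed in this contrast, but were lost in 1 or more alternatives and without 1 or more mice. They were Blnk (0.98), Pik3cd (0.61), Pik3cg (0.56), Inpp5d (0.62) and Ceacam1 (0.81), which were higher on day 7, and Card9, a scaffold of myeloid cells (-0.60), Nfatc1 (-0.56) and Ptprc, the phosphatase CD45 (-0.43), which were lower. Inpp5d missed the threshold with TMM (adjusted p = 0.133), and Card9 with the total count (0.23). Of 11 B cell markers 4 rose and 3 fell between these vehicle groups, and their part was not tested.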

How the data were processed

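The authors extracted total bone marrow RNA and counted it on a NanoString nCounter mouse immune panel. The deposited values are raw counts per probe, and do not include the authors' later nCounter Advanced Analysis normalisation. Each lane was divided here by a factor (0.18 to 3.41) from the geometric mean over 11 of 20 housekeeping probes, those exceeding background in all 33 lanes. Genes had to exceed background in 2 lanes or more, which left 655. A single edgeR 4.0.16 quasi-likelihood fit (R 4.3.3) held the 13 group means, and p-values were adjusted by Benjamini-Hochberg over the 655 genes at a threshold of 0.05. The dispersion was 0.0406 (coefficient of variation 20.2%), with 20 residual degrees of freedom. DESeq2 1.42.0 and limma 3.58.1 on log2(normalised count + 1) were alternatives.

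The labels give groups the same replicate numbers, but the mice are different animals. Only 4 of 12 pairs correlated over 0.1. No 2 lanes were identical. Depth limits the precision of counts near background.

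The genes named are the 6, genes of 5 pathway lists that passed (some are not reported here), and the 3 genes most like each among genes whose normalised counts averaged 20 or more. Members and lists were chosen with earlier results of these data known. Motifs were searched in RefSeq windows (GRCm38.p6). Permutation tests used Python 3.11.15 and scipy 1.17.1.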

Additional observations from a re-analysis of the deposited data

Results flagged for a closer look

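In 6 of 54 pairs of groups compared for direction, every mouse of 1 drug group lay above the mean of its vehicle on the log2 scale and every mouse of the other lay below it. That is 11.1% of the pairs of these 6 genes, and over all 655 genes tested the share was 8.3%. The differences that were tested did not pass after adjustment by edgeR. Fcgr2b was below vehicle after venetoclax and above it after ruxolitinib on day 1, with a difference of -0.93 (adjusted p = 0.304). Fcgr2b was above vehicle after venetoclax on day 3 and below it on day 1, a difference of 1.08 that was not tested. Syk was above vehicle after venetoclax and below it after ruxolitinib on day 3, with a difference of 0.39 (adjusted p = 0.999). Lyn was below vehicle after venetoclax and above it after ruxolitinib on day 1 (-0.32, adjusted p = 0.679), and above vehicle after venetoclax on day 7 but not on day 1 (0.38, adjusted p = 0.967). Both of these pairs rest on a venetoclax mouse of day 1 with 171 normalised counts of Lyn. That mouse lay practically at the mean of its vehicle mice, which had 176 and 166. Lyn was also below vehicle after ruxolitinib on day 3 and above it on day 1, a difference of -0.36 that was not tested.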

How the results depend on the processing

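The number of the 6 genes called was 0 in each comparison of a drug with its vehicle. On day 1 after ruxolitinib it was 1 with TMM, with all housekeeping probes and with both vehicles pooled, and 2 with only the groups compared. On day 3 after venetoclax it was 1 with TMM, with all housekeeping probes and with DESeq2, and 0 to 1 when a mouse was left out. It was 1 with both vehicles pooled on day 3 after ruxolitinib, and 1 with only the groups compared for ruxolitinib over days. For venetoclax against ruxolitinib on day 1 it was 1 with vehicles pooled and 2 with only the groups compared. For any difference among the 13 groups it was 4, and 2 with limma. Fcgr3 in the day 3 difference between drugs turned from 1.27 to -0.27 with vehicles pooled. With the replicate block, 0 of the 26 values of the 6 genes given in the text changed their call or direction, Fcgr1 after ruxolitinib on day 1 included (-1.43, adjusted p = 0.13). Zap70 and Cd22 over days after venetoclax were lost in that fit, in which the numbers join different animals. Of 1038 alternative values over all comparisons, 969 kept direction and call, 18 passed only in the alternative, 3 no longer passed and 48 changed sign. Of 846 values without 1 mouse, 74 changed sign, none with a value over 0.40 in the full fit. The count of all genes called was 77 with only the groups compared and 10 with limma, from 18, on day 1 after ruxolitinib. It was 65 with vehicles pooled and 2 with limma, from 11, for the drug difference on day 1, and 25 with vehicles pooled, from 1, on day 1 after venetoclax. For vehicles, day 7 minus day 1, it was 137 to 270, from 197, and 103 to 178 without 1 mouse. The causes of these moves were not tested. Depth limits Fcgr1, which was not above background in 3 lanes and had 8 to 9 raw counts in ruxolitinib mice of day 1, and Fcgr3 in 1 lane.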
